A study of Mus musculus with 2 samples.

Results

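The imprinted growth genes described here were 10 genes, *Igf2*, *H19*, *Dlk1*, *Meg3*, *Peg3*, *Mest*, *Cdkn1c*, *Grb10*, *Plagl1* and *Igf2r*, of the 18131 genes in the expression tables. They are given by name, by a rule that holds no threshold on their values, and each of them had a column in both tables. Single cells came from the cardiac neural crest region of C57BL/6 mouse embryos at E9.5, from mid otic placode level to the caudal border of the 4th somite. The KO library was made from Prdm6f/f; Wnt1-Cre2; ZsGreen1 embryos, and the WT library from Prdm6+/+; Wnt1-Cre2; ZsGreen1 embryos, so that the Cre and the reporter were present in both. Cre made under Wnt1 control acts in the dorsal neural tube and the neural crest cells (NCCs) it gives rise to, and leaves the floxed gene intact in cells of other origin, such as endothelium, blood and mesoderm, which were also captured. There was 1 library per genotype, for which samples had been barcoded and pooled per the study's methods, the embryos are not told apart here, and no difference below has a replicate check.

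Imprinted genes are transcribed mainly from the chromosome inherited from 1 parent, under the control of DNA methylation set in the germ line. Many of them act on growth of the embryo: as a rule the paternally expressed ones promote it and the maternally expressed ones restrain it. Among the 10 genes, *Igf2*, *Dlk1*, *Peg3*, *Mest* and *Plagl1* are known as paternally expressed and *H19*, *Meg3*, *Cdkn1c* and *Igf2r* as maternally expressed, while the active allele of *Grb10* depends on the tissue. Sequencing of 3′ ends does not tell the parental alleles apart, and the values below are sums over both.

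The genes lie at chr7:142650766-142666816 (*Igf2*) and chr7:142575529-142578143 (*H19*), which are neighbours, at chr12:109452823-109463336 (*Dlk1*) and chr12:109541001-109571726 (*Meg3*), also neighbours, and at chr7:6703892-6730431 (*Peg3*), chr6:30723547-30748465 (*Mest*), chr7:143458339-143461050 (*Cdkn1c*), chr11:11930508-12038683 (*Grb10*), chr10:13060504-13131694 (*Plagl1*) and chr17:12682406-12769664 (*Igf2r*), all in GRCm38 by the GENCODE annotation. *H19* and *Meg3* make long noncoding RNAs and the other 8 genes code for proteins. RefSeq promoter sequences (GRCm38.p6) matched 8 of the 10 genes, and *H19* and *Cdkn1c* were not matched. The 250 bases before the transcription start are shown for the neighbours *Dlk1* and *Meg3*, whose levels ran alike over the cell classes, and for *Plagl1* and *Peg3*, whose KO over WT ratios are described by class below. They are written 5′ to 3′ on the strand of the gene, with any GC box (GGGCGG) or TATA box (TATAAA), read on both strands, in capitals.
Dlk1, chr12:109452573-109452822, plus strand: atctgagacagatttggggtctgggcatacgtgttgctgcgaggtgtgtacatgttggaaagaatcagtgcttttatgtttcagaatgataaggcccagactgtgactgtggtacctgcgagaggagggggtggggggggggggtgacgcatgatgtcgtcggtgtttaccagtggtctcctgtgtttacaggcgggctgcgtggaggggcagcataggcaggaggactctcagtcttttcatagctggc
Meg3, chr12:109540746-109540995, plus strand: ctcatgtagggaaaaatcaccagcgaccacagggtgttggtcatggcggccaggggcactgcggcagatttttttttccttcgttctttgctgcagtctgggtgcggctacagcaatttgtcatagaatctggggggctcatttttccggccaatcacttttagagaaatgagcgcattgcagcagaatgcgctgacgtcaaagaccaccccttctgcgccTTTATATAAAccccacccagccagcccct
Plagl1, chr10:13090582-13090831, plus strand: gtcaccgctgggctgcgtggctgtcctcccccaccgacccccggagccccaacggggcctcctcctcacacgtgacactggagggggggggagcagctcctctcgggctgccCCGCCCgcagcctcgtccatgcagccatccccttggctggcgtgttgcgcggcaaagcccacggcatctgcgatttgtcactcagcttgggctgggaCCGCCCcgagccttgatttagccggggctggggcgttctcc
Peg3, chr7:6730420-6730669, minus strand: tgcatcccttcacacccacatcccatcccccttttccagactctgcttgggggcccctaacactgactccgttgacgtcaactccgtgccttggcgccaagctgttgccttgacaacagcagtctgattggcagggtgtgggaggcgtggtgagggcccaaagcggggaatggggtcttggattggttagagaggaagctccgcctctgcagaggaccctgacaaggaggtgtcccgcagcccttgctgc

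*Meg3* has 2 start sites in this table, of which the first is shown, and the window before the second (chr12:109545148-109545397) held 0 TATA boxes and 0 CpG dinucleotides. In the window shown, the capitals are 2 overlapping TATA box matches, 1 per strand, of which that on the gene's strand ends 20 bases before the start. TATAAA was present in 12.4% of all 32851 promoter windows of this length. In *Plagl1*, the capitals are 2 GC box matches, and GGGCGG was present in 32.7% of all windows. The windows held 19 CpG dinucleotides in *Plagl1*, 10 in that shown for *Meg3* and 8 each in *Dlk1* and *Peg3*, against a median of 6 over all windows. A match here is a description of the letters and not of a bound site.

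The WT library held 11958 cells with 20781384 UMIs and a median of 1597 UMIs per cell, and the KO library held 9765 cells with 18936857 UMIs and a median of 1703. The libraries had 26 cell barcodes in common. Cells were assigned to classes, called X-like, by marker genes that do not include the 10 genes. Of 17 classes, 12 had at least 50 cells in each library and are described, which covered 26.3% of WT and 20% of KO cells, and the rest were assigned to no class or to 5 small classes. For each described class, 2 further genes that the assignment did not use were more abundant inside than outside it in both libraries, by 1.45-fold or more. *Prdm6* itself had 104 UMIs in WT, or 5.00 UMIs per 1000000 UMIs (CPM), and 59 in KO, or 3.12 CPM, a log2 ratio of -0.68 (95% interval -1.17 to -0.21). Cells in which Cre does not act keep the gene, and a 3′ end can come from a deleted allele.

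All levels are CPM of the library or of the class, with exact Poisson 95% intervals. Ratios are KO over WT on the log2 scale with exact conditional 95% intervals. Both cover counting error only, and not the spread between embryos or libraries. Batch effects separating WT from KO cells were seen by eye, per the study's methods. A graph of neighbouring cells balanced for batch was therefore used there for clustering. Levels and ratios here hold no such correction, and the part of batch in the KO over WT ratios was not tested. A UMI stands for 1 captured 3′ end and its number is not scaled by gene length, so levels are compared across cells for each gene and not between genes.

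Over all cells, 9 of the 10 imprinted genes had a lower level in KO than in WT, with *Dlk1* and *Plagl1* farthest from WT. *Dlk1*, a membrane protein related to Notch ligands that restrains differentiation, was at 213 CPM in WT and 127 CPM in KO, a log2 ratio of -0.75 (-0.82 to -0.68), and 0.818% of the 10513 genes with at least 200 UMIs had a lower ratio. *Plagl1*, a zinc finger transcription factor, was at 193 CPM in WT and 143 CPM in KO, a log2 ratio of -0.43 (-0.50 to -0.36), and 5.07% of genes had a lower ratio. As a measure of size, the lower level had to be at most 80% of the higher one. These were the only 2 of the 10 that were lower in KO by this measure, beside 10.6% of all genes, and 0 were higher, beside 3.86% of all genes. *H19*, at 402 CPM in WT and 322 CPM in KO (log2 ratio -0.32, -0.37 to -0.27), lay just short of it, with 80.2% of the WT level. When cells with at least 1000 UMIs were thinned to 1000, *Meg3* and *Peg3* also met it, making 4 of the 10, beside 12.3% of the genes in the thinned data. This left out 1361 WT and 125 KO cells, so that depth and the set of cells changed together.

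The other paternally expressed genes were lower by less. *Peg3*, a zinc finger protein involved in growth and maternal behaviour, had 1876 CPM in WT and 1539 CPM in KO (log2 ratio -0.29, -0.31 to -0.26). *Mest*, a protein of the alpha/beta hydrolase fold, had 2012 and 1759 CPM (-0.19, -0.21 to -0.17). *Igf2*, the growth factor, had 13.9 and 12.3 CPM, and its interval included 0 (-0.18, -0.43 to 0.08).

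The maternally expressed genes were lower in KO as well, so that the direction did not divide the genes by parental origin. *Meg3*, a long noncoding RNA, had 410 CPM in WT and 338 CPM in KO (log2 ratio -0.28, -0.32 to -0.23). *Igf2r*, the receptor that carries Igf2 to lysosomes for breakdown, had 275 and 235 CPM (-0.23, -0.29 to -0.17). *Cdkn1c*, the cell cycle inhibitor p57, had 628 and 572 CPM (-0.13, -0.17 to -0.10).

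*Grb10*, an adaptor that dampens insulin and IGF receptor signaling, was the exception, at 619 CPM in WT and 632 CPM in KO (log2 ratio 0.03, -0.01 to 0.07). The interval of the ratio was below 0 for 8 of the 10 genes, beside 29.1% of all genes tested, and it narrows with the number of UMIs. The median ratio was -0.25 over the 10 genes and -0.06 over the 10513 genes, of which 60.8% were below 0.

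**Figure D1:**
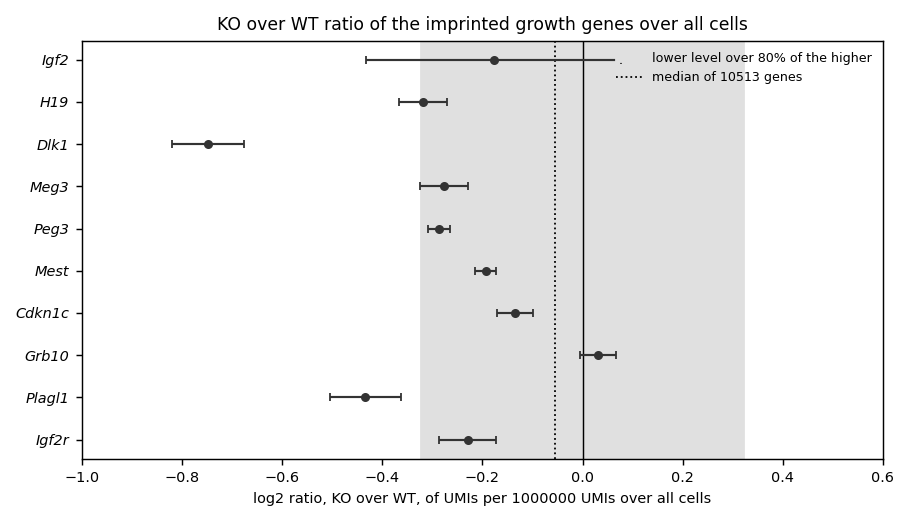
KO over WT log2 ratio of CPM over all cells, 1 point per gene, with bars for exact 95% counting intervals. The grey band marks ratios in which the lower level is over 80% of the higher and the dotted line the median of 10513 genes (-0.06). *Dlk1* (-0.75) and *Plagl1* (-0.43) lie outside the band, and *Grb10* (0.03) is the only gene above 0.

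The make-up of the libraries moved with these ratios. Cardiac muscle-like cells were 5.70% of WT and 3.90% of KO cells, erythroid-like cells 4.37% and 2.11%, splanchnic mesoderm-like cells 2.53% and 1.52%, and somite-like cells 1.35% and 0.727%. Arch mesenchymal NCC-like (0.686% and 0.993%), neuron-like (1.31% and 1.43%) and floor plate-like cells (0.978% and 1.08%) had the larger share in KO. With the classes and unassigned cells weighted by 1 common make-up, the log2 ratio was -0.78 for *Dlk1*, -0.39 for *Plagl1*, -0.29 for *H19* and -0.31 for *Peg3*. The unassigned cells alone gave -0.80 for *Dlk1* (249 and 143 CPM) and -0.52 for *Plagl1* (154 and 107 CPM). In captured cells, the loss of a cell type and a lower level per cell cannot be told apart where types are not assigned.

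Across the 12 classes, each gene differed more between its highest and lowest class than between the libraries over all cells. The splanchnic mesoderm-like class, the mesoderm around gut and heart, was the place of highest level for several of the paternally expressed genes. *Peg3* was highest there in both libraries, at 4318 CPM in WT and 3589 in KO, and lowest in erythroid-like cells, at 483 and 380 CPM. Arch mesenchymal NCC-like (3091 and 2465 CPM) and floor plate-like cells (2701 and 2534 CPM) followed, and the order of these neighbours differed between the libraries. *Plagl1* had 694 CPM in WT and 553 CPM in KO splanchnic mesoderm-like cells, beside 602 and 578 CPM in endothelial-like cells, so that a different class was highest in each library. Cardiac muscle-like cells had 344 and 279 CPM of *Plagl1*, and it was lowest in migrating NCC-like cells, at 47.6 CPM (28 UMIs) in WT and 17.4 CPM (8 UMIs) in KO.

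*Dlk1* in WT was highest in splanchnic mesoderm-like cells at 502 CPM (449 to 559) and lowest in endothelial-like cells at 41.5 CPM. In KO the splanchnic mesoderm-like level was 223 CPM (178 to 276), and head mesenchyme-like cells had 302 CPM (234 to 383), against 238 CPM in WT. The class of highest *Dlk1* thus differed between the libraries. The share of cells with a *Dlk1* UMI, after thinning, was 32.6% of WT and 14.9% of KO splanchnic mesoderm-like cells, and 44.7% and 33.1% before it. The shares in endothelial-like cells (3.90% and 2.54%) did not exceed those in erythroid-like cells (4.69% and 3.88%), and are read as background. Median depth was 2029 and 2470 UMIs in splanchnic mesoderm-like, 2200 and 2776 in endothelial-like and 2047 and 2453 in erythroid-like cells.

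*Meg3* shared the mesodermal part of this pattern and not the low endothelial level. It had 776 CPM in WT and 543 in KO in splanchnic mesoderm-like cells, 716 and 671 in somite-like cells and 612 and 779 in head mesenchyme-like cells, 3 classes whose order was not the same in both libraries. In endothelial-like cells it had 238 and 228 CPM, and the lowest level was in erythroid-like cells, at 92.7 and 73.3 CPM. Over the 12 classes, log2 levels of *Dlk1* and *Meg3* had a Pearson correlation of 0.80 in WT and 0.78 in KO, which is a description over classes of 1 library that share its free RNA. In single cells thinned to 1000 UMIs, a *Meg3* UMI was present in 45.1% of WT cells with *Dlk1* and 23.3% of those without, and in 35.9% and 20.6% of KO cells.

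*H19* and *Mest* were highest in endothelial-like cells. *H19* had 910 CPM in WT and 707 in KO there, then 680 and 514 CPM in splanchnic mesoderm-like and 539 and 432 CPM in erythroid-like cells, and its lowest level was 126 and 116 CPM in neural tube-like cells. *H19* was thus well above its neural level in blood-like cells, in which *Peg3*, *Mest*, *Cdkn1c* and *Meg3* were each at their lowest. *Mest* had 4046 and 3707 CPM in endothelial-like cells, followed by head mesenchyme-like (2682 and 2856 CPM) and somite-like cells (2706 and 2551 CPM), an order of neighbours that the libraries did not share, and 746 and 509 CPM in erythroid-like cells.

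*Cdkn1c* and *Igf2r* were highest in cardiovascular classes. *Cdkn1c* had 1725 CPM in WT and 1690 in KO in cardiac muscle-like cells, 1572 and 1928 in endothelial-like cells and 1283 and 1029 in somite-like cells. Among neural cells, the neuron-like class had 849 and 809 CPM of this cell cycle inhibitor and the neural tube-like class of progenitors 273 and 332 CPM, with intervals that did not overlap in either library. *Igf2r* was highest in cardiac muscle-like cells, at 763 and 775 CPM, then in splanchnic mesoderm-like (598 and 608) and endothelial-like cells (540 and 534). The other 9 classes had between 59.8 and 215 CPM of *Igf2r*.

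*Grb10* was nearly flat, between 401 and 772 CPM over all classes and both libraries. Its highest class stood 0.88 above its lowest on the log2 scale of CPM plus 10, as a mean of the libraries, against 2.08 or more for each of the other 9 genes. The range was 3.61 in WT and 4.42 in KO for *Plagl1*, the latter down to the 8 UMIs of migrating NCC-like cells, and 3.69 and 4.09 for *Cdkn1c*.

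*Igf2* was low in every class. It reached 38.7 CPM in WT (25 UMIs) and 34.1 in KO (13 UMIs) splanchnic mesoderm-like cells, 28.3 and 23.3 CPM in endothelial-like and 25.5 and 27.8 CPM in cardiac muscle-like cells, with intervals that overlapped. Each of the 7 classes that were erythroid-like, neural or NCC-like had 3 UMIs or fewer in both libraries. The annotation bears on this level: GENCODE lists a further protein-coding gene, *Gm49394*, on the same strand, which shares 3596 exonic bases, or 62.8%, with *Igf2* and 99.4% of its last 500 exonic bases. *Gm49394* had a column in the tables, with 4 UMIs in WT and 3 in KO. Gene counting of this kind drops reads that fall on exons of 2 genes on 1 strand, and its part in the low *Igf2* level was not tested. Only protein-coding, long intergenic noncoding and antisense genes were compared, and small RNA genes were not. Among these, no other member shared exons with a gene on its own strand. On the opposite strand, *Copg2* covered 100% of the last 500 bases of *Mest* and *Gm26906* 85.2% of those of *Meg3*.

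**Figure D2:**
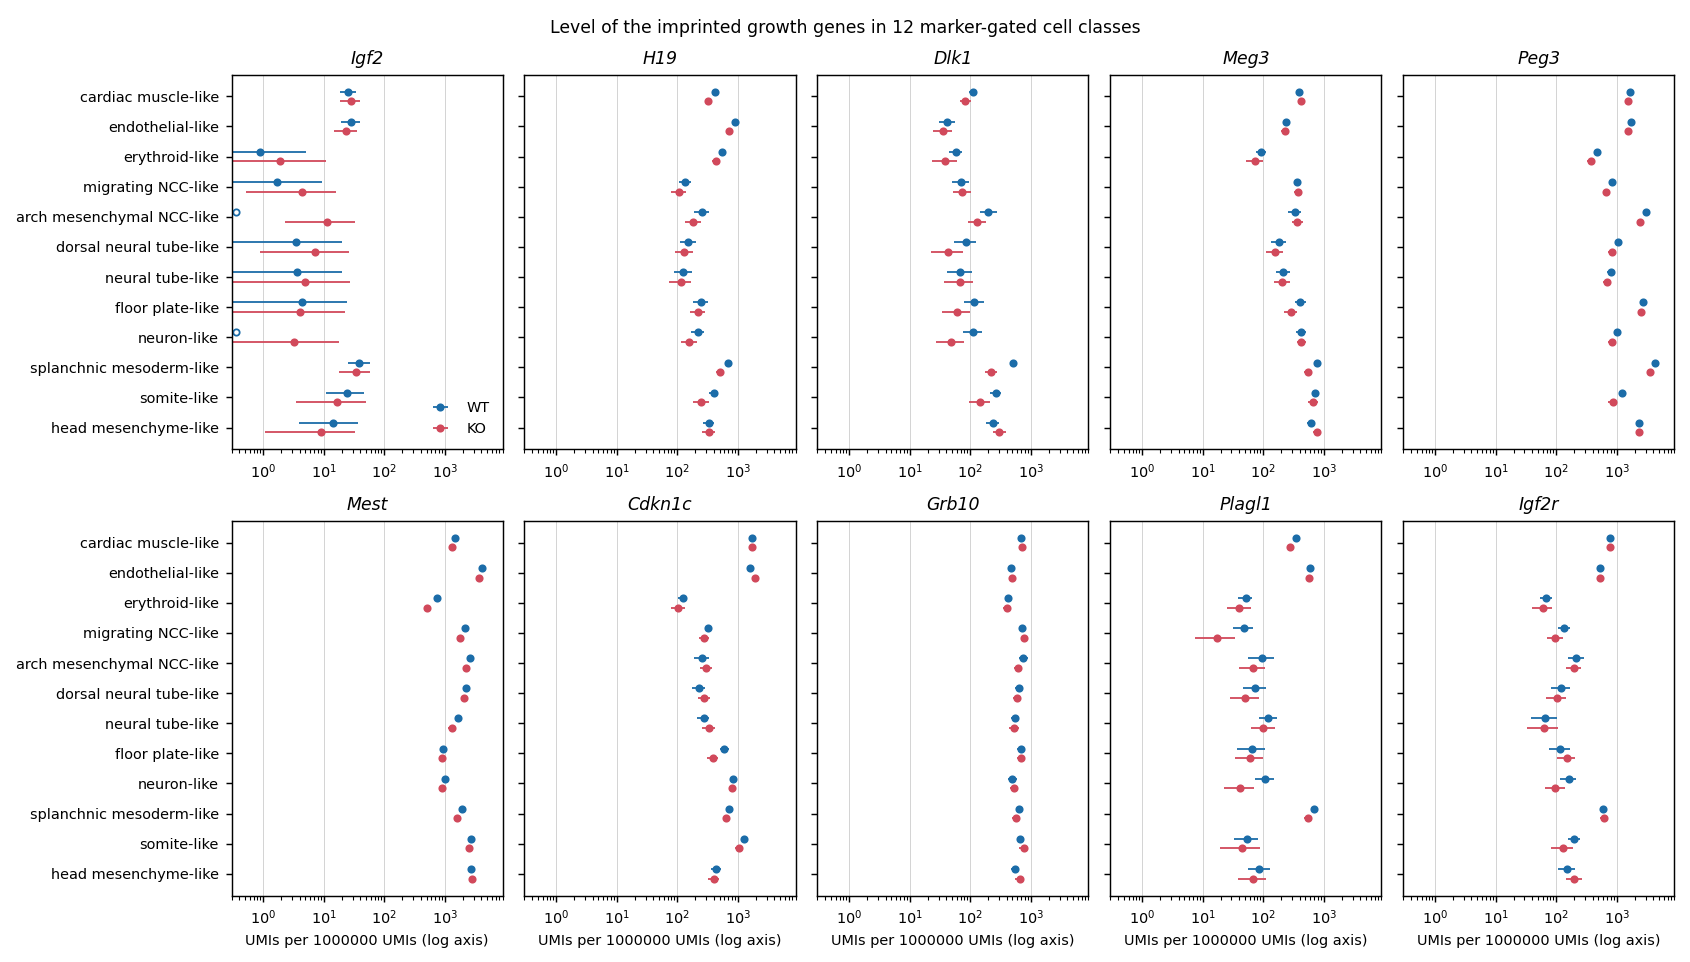
Level of each gene in CPM (log axis) in 12 marker-gated classes, WT in blue and KO in red, with exact Poisson 95% intervals, and open points at the left edge for classes with 0 UMIs. *Grb10* stays between 401 and 772, whereas *Plagl1* runs from 17.4 to 694 and *Peg3* from 380 to 4318.

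Within classes, the KO over WT ratios of *H19*, *Peg3* and *Plagl1* were below 0 in 12 of 12 classes. Some of these lay close to 0, and with 3 markers required per cell the number was 10 for *H19*, 11 for *Peg3* and 11 for *Plagl1*. For *Plagl1* the 12 include erythroid-like cells, whose share with a UMI after thinning (4.30% of WT and 4.37% of KO) is read as background. They also include migrating NCC-like (3.40% and 0.658%) and somite-like cells (2.47% and 2.82%), which did not exceed that share. Of 4474 genes with at least 15 UMIs in each class, 2.19% were lower in KO in all 12. *Mest* was lower in 11 of 12 classes, beside 6.46% of genes lower in at least 11. *Dlk1* was lower in 10 classes, *Cdkn1c* and *Igf2r* in 8, *Meg3* in 7 and *Grb10* in 5. For *Igf2r* the number was 4 after thinning and 5 without the 5% of cells with most UMIs. *Igf2* had over 3 UMIs in at least 1 library in 5 classes and was lower in 4 of these, and in 1 class after thinning. Classes of 1 library share its embryos and its free RNA, whose part was not tested, and are not replicates of each other.

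*Dlk1* had the lowest median ratio over the 12 classes, -0.60, and its interval was below 0 in 5 of them. In splanchnic mesoderm-like cells the log2 ratio was -1.17 (-1.53 to -0.82), with 324 UMIs in WT and 85 in KO. Other genes differed between the libraries in that class as well, among those picked from its leading genes after their values were seen. *Wt1* had 108 and 39.3 CPM, *Hand1* 149 and 57.7 and *Lhx9* 85.2 and 15.7. By contrast, *Osr1* had 232 and 349 and *Gata5* 269 and 435. *Col1a1* had 745 and 241, but it was ranked most like *Dlk1* over points that hold these same levels. Its fall beside *Dlk1* is thus partly set by that choice. Kinds of cell within the class were not counted. *Foxf1* (166 and 157 CPM) and *Bmp4* (198 and 207 CPM) had intervals that included 0. A shift between kinds of splanchnic mesoderm-like cells and a lower level within them cannot be told apart here, for *Dlk1* and for the other genes in this class. In neuron-like cells it was -1.20 (-2.19 to -0.27) on 31 and 15 UMIs, and -2.27 after thinning, where the share of KO cells with a *Dlk1* UMI (2.17%) was below that in erythroid-like cells (3.88%) and is read as background, while the WT share was 9.80% against 4.69%. In somite-like cells the ratio was -0.87 (-1.56 to -0.24) on 99 and 26. Of the 8 genes among the 10 leading ones of the somite-like class in 1 library only, 3 had intervals that excluded 0: the myogenic factor gene *Myog* (126 CPM in WT and 28.0 in KO), *Cdkn1a* (137 and 72.7) and *Dqx1* (229 and 481). The part of this shift in the somite-like ratios of *Dlk1*, *H19*, *Peg3* and *Cdkn1c* was not tested. Floor plate-like (-0.97) and cardiac muscle-like cells (-0.40) were the other 2, and their intervals included 0 when the class was scaled by a trimmed mean of log ratios, which left 3. Migrating NCC-like cells had 69.7 and 73.9 CPM (0.08, -0.62 to 0.78), and head mesenchyme-like cells had the higher level in KO (0.35, -0.17 to 0.86), both with intervals that included 0.

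*Plagl1* had a median ratio of -0.33. In migrating NCC-like cells the ratio was -1.45 (-2.80 to -0.28), on the 28 and 8 UMIs given above, which are within the background share of cells, since 3.40% of WT and 0.658% of KO cells had a *Plagl1* UMI after thinning against 4.30% and 4.37% of erythroid-like cells. In neuron-like cells it was -1.36 (-2.42 to -0.38) on 30 and 13 UMIs. In the classes that hold most *Plagl1*, the ratio was -0.33 (-0.57 to -0.09) in splanchnic mesoderm-like, -0.30 (-0.51 to -0.10) in cardiac muscle-like and -0.06 (-0.22 to 0.11) in endothelial-like cells.

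The *H19* ratio was -0.37 (-0.56 to -0.18) in cardiac muscle-like, -0.36 (-0.51 to -0.22) in endothelial-like, -0.32 (-0.55 to -0.10) in erythroid-like, -0.40 (-0.65 to -0.16; -0.81 after thinning) in splanchnic mesoderm-like and -0.67 (-1.19 to -0.18) in somite-like cells, and the intervals of the other 7 classes included 0. *Peg3* had intervals below 0 in 9 classes, from -0.12 in cardiac muscle-like to -0.51 (-0.78 to -0.24) in somite-like cells, and a median ratio of -0.28. After thinning the somite-like ratio was -0.12, and under trimmed mean scaling the cardiac muscle-like interval included 0, which left 8. Head mesenchyme-like cells were close to 0 for both genes, at -0.01. *Mest* had intervals below 0 in 7 classes, with -0.55 (-0.76 to -0.35) in erythroid-like and -0.32 (-0.55 to -0.10) in neural tube-like cells as the lowest. Erythroid-like cells held the lowest *Mest* level of any class, with a UMI in 50.2% of WT and 37.4% of KO cells after thinning, and the part of free RNA in that ratio was not tested.

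*Meg3* and *Cdkn1c* went both ways. *Meg3* was lower in KO in splanchnic mesoderm-like (-0.52, -0.76 to -0.28) and floor plate-like cells (-0.52, -0.99 to -0.06) and higher in head mesenchyme-like cells (0.35, 0.03 to 0.66). *Cdkn1c* was lower in floor plate-like (-0.64, -1.03 to -0.25) and somite-like cells (-0.32, -0.57 to -0.07) and higher in endothelial-like cells (0.29, 0.20 to 0.39). After thinning, the *Meg3* ratio in floor plate-like cells was -0.18, and with 3 markers required per cell that of *Cdkn1c* there was -0.21 and that of *Meg3* in head mesenchyme-like cells 0.22. Of other genes in the floor plate-like class, picked after values were seen, *T* and *Shh* also differed between the libraries, beside *Meg3*, *Cdkn1c* and *Dlk1*. *T*, a notochord gene, had 67 UMIs (292 CPM) there in WT and 0 in KO (interval up to 14.8 CPM). *Shh* had 1435 and 1017 CPM, and *Foxa2* had 759 and 692 CPM, with an interval of the ratio that included 0. In head mesenchyme-like cells, 4 of the 10 genes that led the class in 1 library only had intervals that excluded 0, *Col9a1* (119 CPM in WT and 49.6 in KO), *S1pr3* (75.6 and 162), *Has2* (75.6 and 167) and *Cdh11* (396 and 532), and their part in the *Meg3* ratio there was not tested. A smaller share of notochord cells in the floor plate-like class and a lower level within its cells cannot be told apart. The somite-like ratio of *Cdkn1c* was -0.035 without the 5% of cells with most UMIs and -0.11 after thinning. The differences between classes were not tested. *Igf2r* had an interval below 0 in neuron-like cells only (-0.74, -1.45 to -0.04), and *Grb10* had none that excluded 0.

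**Figure D3:**
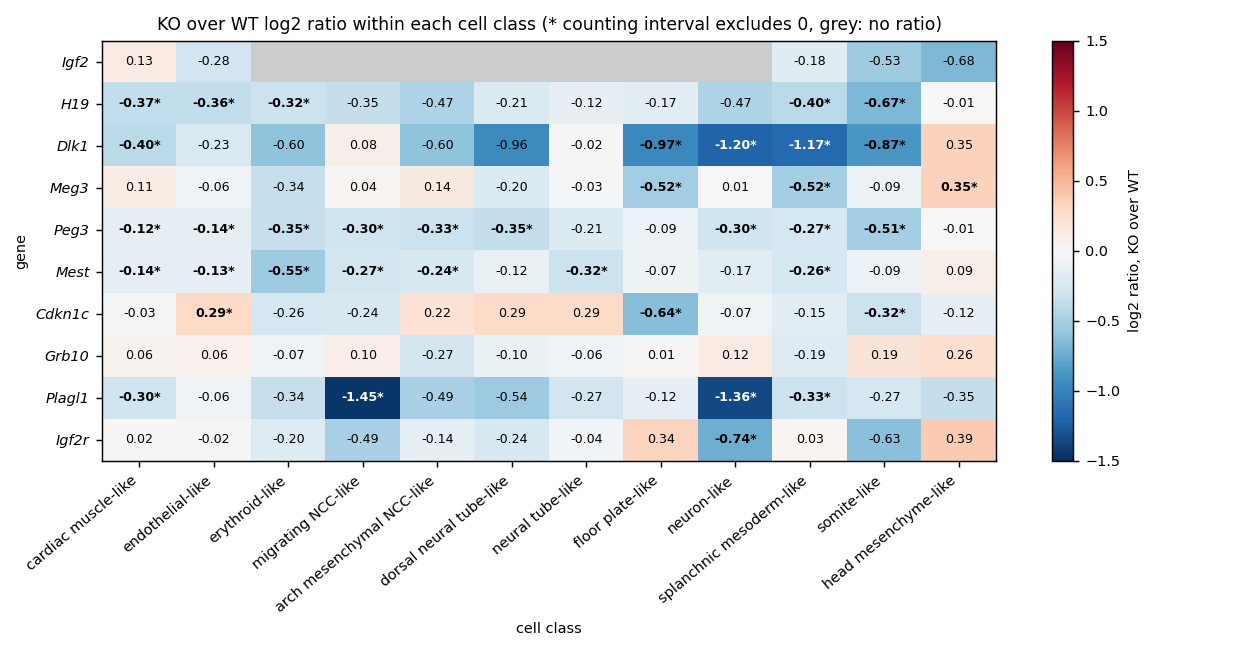
KO over WT log2 ratio of each gene (rows) in each of 12 cell classes (columns), blue for lower and red for higher in KO. An asterisk marks a counting interval that excludes 0 and grey a class with 3 UMIs or fewer in both libraries. *H19*, *Peg3* and *Plagl1* are below 0 in all 12 columns, which for *Plagl1* include classes at its background share of cells.

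The 3 classes taken here as the Wnt1 lineage, in which Cre acts, were the dorsal neural tube-like, migrating NCC-like and arch mesenchymal NCC-like cells. The median ratio in these 3 against the other 9 classes was -0.60 and -0.60 for *Dlk1*, -0.35 and -0.36 for *H19*, -0.33 and -0.21 for *Peg3*, -0.54 and -0.30 for *Plagl1*, -0.24 and -0.14 for *Mest*, -0.24 and -0.02 for *Igf2r*, -0.10 and 0.06 for *Grb10* and 0.04 and -0.06 for *Meg3*. Each median of 3 is the value of 1 class, and its interval included 0 for *H19* (migrating NCC-like, -0.90 to 0.18), *Dlk1* (arch mesenchymal NCC-like, -1.30 to 0.09), *Plagl1* (dorsal neural tube-like, 21 and 14 UMIs, -1.63 to 0.50), *Igf2r* (dorsal neural tube-like, -1.01 to 0.53), *Grb10* and *Meg3*. Classes were assigned by marker genes and not by the reporter, so these 3 can hold cells of other origin, and the other classes cells of the lineage. *Twist1*, a marker of the arch mesenchymal NCC-like class, was also 1.77-fold (WT) and 1.76-fold (KO) more abundant inside than outside the head mesenchyme-like class. *Cdkn1c* had a median of 0.22 in the 3 classes, which is the value of the arch mesenchymal NCC-like class (51 and 79 UMIs, -0.31 to 0.76), and -0.12 in the other 9. After thinning the direction turned, with -0.35 in that class, -0.60 in migrating NCC-like and 0.50 in dorsal neural tube-like cells. None of these gaps was tested.

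The number of *Meg3* UMIs per *Dlk1* UMI set the neighbours against each other within the same cells, and does not depend on the scaling of the libraries. Over all cells there were 1.92 (1.85 to 1.99) in WT and 2.66 (2.54 to 2.79) in KO. Splanchnic mesoderm-like cells had 1.55 (1.34 to 1.78) and 2.44 (1.88 to 3.17), and neuron-like cells 3.84 (2.57 to 5.90) and 8.87 (5.19 to 16.3), the latter on the 15 *Dlk1* UMIs that are near background. Head mesenchyme-like cells had 2.58 in both libraries. *Peg3* per *Mest* was 0.933 (0.920 to 0.946) in WT and 0.875 (0.861 to 0.889) in KO over all cells, and differed more between classes than that: it was 2.84 and 2.80 in floor plate-like, 2.29 and 2.28 in splanchnic mesoderm-like, 0.426 and 0.423 in endothelial-like and 0.378 and 0.370 in migrating NCC-like cells. Dorsal neural tube-like (0.471 and 0.400) and erythroid-like cells (0.647 and 0.746) were farther apart, with intervals that overlapped. Somite-like cells had 0.452 (0.404 to 0.506) in WT and 0.338 (0.279 to 0.406) in KO, and after thinning the KO over WT log2 ratios in that class were -0.12 for *Peg3* and 0.01 for *Mest*. *H19* per *Cdkn1c* was 4.34 and 4.15 in erythroid-like cells and 0.579 (0.534 to 0.627) and 0.367 (0.336 to 0.400) in endothelial-like cells, where the level of *H19* was lower and that of *Cdkn1c* higher in KO.

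**Figure D4:**
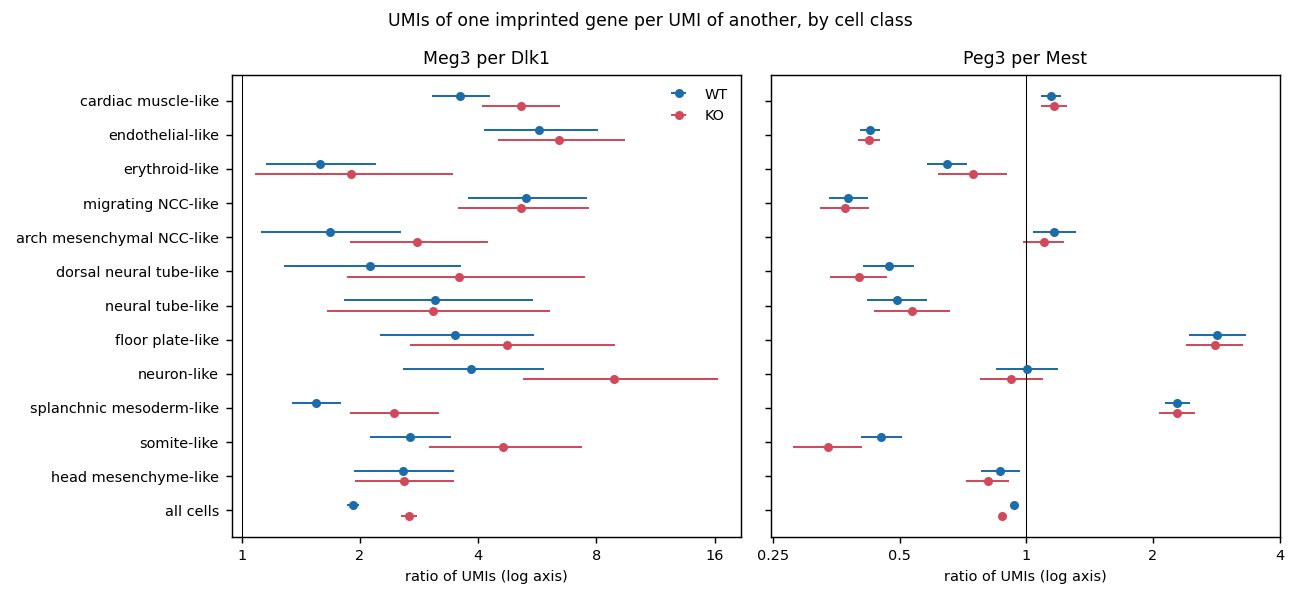
UMIs of *Meg3* per UMI of *Dlk1* (left) and of *Peg3* per UMI of *Mest* (right), log axes, in 12 classes and all cells, WT in blue and KO in red, with 95% counting intervals. *Meg3* per *Dlk1* over all cells is 1.92 in WT and 2.66 in KO, and *Peg3* per *Mest* 0.933 and 0.875, with 2.84 and 2.80 in floor plate-like cells.

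The genes whose class pattern was most like that of a member were ranked by Pearson correlation of log2 levels (CPM plus 10) over 24 points, the 12 classes in both libraries, among 6226 genes. *Peg3* was followed most closely by *Usp29* (0.90), its neighbour on chromosome 7, then *Dusp9* (0.85) and *Asb4* (0.83). *Plagl1* was followed by *Smad6* and *Nfib* (0.89 each) and *Gata5* (0.84), *Igf2r* by *Rcsd1*, *Rbpms* and *Bambi* (0.90, 0.89 and 0.89), and *Cdkn1c* by *Myadm*, *Sptan1* and *Tspan9* (0.87, 0.87 and 0.84). For *Dlk1* these were *Col1a1*, *Flrt3* and *Gpc3* (0.85, 0.85 and 0.84), for *Meg3* *Dnmt3a*, *Flrt3* and *Slc25a36* (0.85, 0.83 and 0.82), and for *Mest* *Igfbp4*, *Gng12* and *Armcx2* (0.88, 0.85 and 0.84). *H19* (*Tacc1*, *Zfpm1* and *St3gal1*, 0.80 to 0.74), *Grb10* (*Mrfap1*, *Bmpr1a* and *Impact*, 0.81 to 0.79) and *Igf2* (*Phactr2*, *Rhoc* and *Itm2a*, 0.82 each) had looser company. Classes share their library, its depth and its free RNA, and no p is given. Among the members themselves, *Igf2r* and *Plagl1* had a correlation of 0.83 in WT and 0.85 in KO over 12 classes.

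Of 56 other imprinted genes listed, 54 had a column and 36 had at least 200 UMIs. Of these, 4 had at most 80% of the WT level in KO, beside 10.6% of all genes, and 0 were higher by as much, beside 3.86%. Their median log2 ratio was -0.06, as over all genes, and the interval was below 0 for 16 of the 36, beside 29.1% of all genes, and above 0 for 5, beside 16.9%. The 4 were *Dcn*, which encodes the matrix proteoglycan decorin (7.17 and 3.27 CPM, -1.13, -1.58 to -0.69), *Trappc9* (-0.37, -0.58 to -0.16), *Zim1* next to *Peg3* (-0.34, -0.56 to -0.12) and the amino acid transporter gene *Slc38a4* (-0.33, -0.43 to -0.22). Of the other neighbours of the members, *Mirg* in the *Dlk1* and *Meg3* domain had -0.29 (-0.48 to -0.09), a gene chosen after its value was seen, *Usp29* beside *Peg3* had -0.19 (-0.32 to -0.06), *Copg2* beside *Mest* 0.12, *Airn* opposite *Igf2r* 0.13, and *Kcnq1ot1* (0.04) and *Phlda2* (0.09) of the *Cdkn1c* domain were close to 0. *Ins2*, beside *Igf2*, had 0 UMIs in WT and 3 in KO.

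Of the 15 genes of the IGF pathway, 12 had at least 200 UMIs, and 2 had at most 80% of the WT level in KO, beside the same 10.6% of all genes, while 0 were higher by as much, beside 3.86%. These were *Irs2*, an adaptor downstream of the insulin and IGF receptors (134 and 101 CPM, -0.41, -0.50 to -0.33), and *Igfbp3*, a carrier of IGFs (25.6 and 20.1 CPM, -0.35, -0.54 to -0.16). The interval was below 0 for 6 of the 12, beside 29.1% of all genes, and above 0 for 3, beside 16.9%. The others below 0 were *Igfbp2* (-0.20), *Irs1* (-0.18), *Igfbp5* (-0.17) and *Igfbp4* (-0.16), and the 3 above 0 were *Igf2bp2* (0.18) and the following genes. The receptor gene *Igf1r* had 217 and 228 CPM (0.07, 0.01 to 0.14), and *Igf2bp1*, whose product binds *Igf2* and *H19* RNA, had 402 and 452 CPM (0.17, 0.13 to 0.21). Of 13 measured genes for proteins that maintain imprints, 0 had at most 80% of the WT level in KO, beside 10.6% of all genes, and 2 were higher in KO by as much, beside 3.86%: *Arid4a* (0.38, 0.22 to 0.55) and the chromatin remodeler gene *Hells* (0.34, 0.28 to 0.41). The interval was above 0 for 7 of the 13 maintenance genes, beside 16.9% of all genes, and below 0 for 0, beside 29.1%. The median was -0.08 for the IGF pathway and 0.07 for the maintenance genes.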

How the data were processed

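Single-cell 3′ RNA-seq was performed on 2 libraries, 1 per genotype. The deposited values are a score: the authors divided UMI counts by the total of the cell, rescaled them and took the square root, after removing cells by UMI and gene number. The study's methods state that mitochondrial and ribosomal UMIs were removed as well, so UMI totals, depths and CPM here are of the genes that remained. Cell Ranger 1.3.1, Scanpy and mm10 are named in the submitters' processing notes, whereas the study's methods give the human genome plus ZsGreen1 as reference. UMIs were recovered by squaring and dividing by the smallest nonzero square of the cell, and 100% of values were whole within 0.01. Values with no replicates allow no count model, and none was run.

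A cell joined a class where at least 2 of its markers were present, a Poisson log-likelihood ratio (markers raised 5-fold over the mean of all cells) reached 4 and led the next class by 3. Cells whose best class reached 4 but led the next by less than 3 (327 WT, 216 KO) were left unassigned. The methods state that doublets had been removed with DoubletFinder. The ratio and its interval were tested on simulated data. The 10 genes, the lists and the markers were chosen with earlier results of these data known. Named beside the 10 genes were listed genes with at least 200 UMIs and a lower level at most 80% of the higher, neighbours or partners of members (*Igf1r*, *Igf2bp1*, *Kcnq1ot1*, *Copg2*, *Airn*, *Phlda2*, *Ins2*, *Usp29*), and the 3 genes most alike per member. *Mirg*, the other genes of the IGF pathway given by value and the genes given for the make-up of a class were chosen after their values were seen. *Rian*, *Peg13* and *Dppa3* were not analysed here. Python 3.11.15, numpy 2.4.6, scipy 1.17.1, pandas 2.3.3 and matplotlib 3.10.9 were used. Alternatives were other scalings, equal weight per cell, a common class make-up, thinning, a stricter assignment with 3 markers, other UMI minimums, and leaving out the 5% of cells with most UMIs.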

Additional observations from a re-analysis of the deposited data

Results flagged for a closer look

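The KO over WT log2 ratio of *Meg3* lay above 0 in head mesenchyme-like cells (0.35, 95% interval 0.03 to 0.66) and below 0 in floor plate-like cells (-0.52, -0.99 to -0.06), a gap of 0.871. That of *Cdkn1c* lay above 0 in endothelial-like cells (0.29, 0.20 to 0.39) and below 0 in floor plate-like cells (-0.64, -1.03 to -0.25), a gap of 0.935. Each was singled out because counting intervals of 2 classes lay on opposite sides of 0 within the same libraries. With 1 library per genotype the difference between classes was not tested. With 3 markers required per cell, the floor plate-like ratio was -1.05 for *Meg3* and -0.21 for *Cdkn1c*, and the head mesenchyme-like ratio of *Meg3* was 0.22. After thinning to 1000 UMIs, the floor plate-like ratio was -0.18 for *Meg3* and -0.45 for *Cdkn1c*. The notochord gene *T* had 67 UMIs in WT and 0 in KO floor plate-like cells, and in head mesenchyme-like cells *Col9a1* had 119 and 49.6 CPM and *Has2* 75.6 and 167 CPM.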

How the results depend on the processing

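No paired analysis was possible because there was 1 library per genotype and the labels carry no replicate numbers. None of the values over all cells, and none of the class ratios, changed sign where the lower level was at most 80% of the higher and the interval excluded 0. Scaling by a median of ratios or a trimmed mean of log ratios raised every ratio over all cells by 0.07 or 0.06 on the log2 scale and gave, in this order, -0.25 and -0.26 for *H19*, -0.21 and -0.22 for *Meg3*, -0.22 and -0.23 for *Peg3*, -0.13 and -0.13 for *Mest*, -0.070 and -0.076 for *Cdkn1c*, 0.096 and 0.090 for *Grb10*, and -0.16 and -0.17 for *Igf2r*. Thinning to 1000 UMIs, a depth that 1361 WT and 125 KO cells did not reach, gave -0.84 for *Dlk1*, -0.38 for *Meg3*, -0.38 for *Peg3*, -0.25 for *Cdkn1c*, -0.59 for *Plagl1* and -0.32 for *Igf2r*, and left 4 of the 10 genes with at most 80% of the WT level in KO. Equal weight per cell gave -0.32 for *Peg3*, -0.22 for *Mest*, -0.19 for *Cdkn1c*, -0.51 for *Plagl1* and -0.31 for *Igf2r*. A common class make-up gave -0.31 for *Peg3*, -0.22 for *Mest*, -0.086 for *Cdkn1c* and -0.17 for *Igf2r*. Without the 5% of cells with most UMIs, *Peg3* had -0.31. Classes with a ratio below 0 numbered 10 to 12 for *H19*, 11 to 12 for *Peg3* and 10 to 12 for *Plagl1* over all settings, and 1 for *Igf2* and 4 for *Igf2r* after thinning, and 5 for *Igf2r* without the deepest cells. Under trimmed mean scaling, intervals below 0 went from 5 classes to 3 for *Dlk1*, from 9 to 8 for *Peg3* and from 7 to 6 for *Mest*. The range over classes was 0.96 for *Grb10* under the stricter assignment and 3.33 for *Igf2r* with equal weight per cell. The share of genes with at most 80% of the WT level in KO was 14.1% with at least 50 UMIs and 6.17% with at least 1000, and that of genes higher in KO by as much was 5.46% with at least 50. The cause of these shifts was not tested. Of 450 recomputed class ratios, 22 moved beyond the counting error. The arch mesenchymal NCC-like class fell to 33 WT cells under the stricter assignment. Most cells joined no class, and ratios on fewer than 50 UMIs have intervals wider than most of the differences reported.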
